A study of Homo sapiens with 6 samples.

Results

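The genes described here are TCF7, TCF7L1, TCF7L2 and LEF1, the 4 TCF/LEF transcription factor genes, and CTNNB1, the gene for β-catenin itself. They were followed through the peaks that the study's authors assigned to them by gene name, at any distance from the transcription start site (TSS). Of 3126 peaks in the 3 deposited lists, 3 were assigned to these 5 genes. TCF7 and TCF7L2 accounted for them, TCF7 with 1 peak in each of 2 lists and TCF7L2 with 1 peak in 1 list. TCF7L1, LEF1 and CTNNB1 had no peak under their own names in any list.

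β-catenin was mapped by chromatin immunoprecipitation and sequencing (ChIP-seq) in the human embryonic stem cell line SA121. The cells spent 6 h in RPMI medium alone, in RPMI with CHIR99021 (CHIR), or in RPMI with CHIR99021 and SB431542 (CHIR+SB). CHIR99021 inhibits GSK3, the kinase that marks β-catenin for destruction, and SB431542 inhibits the receptors for activin, Nodal and TGFβ. Each condition had 1 library from an antibody to β-catenin and 1 from goat IgG as the control, each made from pooled parallel ChIPs, so no spread between replicates can be given and no p-value is given for any difference between conditions.

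The proteins of these genes are the end of the Wnt pathway. β-catenin does not bind DNA by itself. It is brought to chromatin by TCF/LEF factors, which recognise short DNA motifs through an HMG box, and which recruit TLE/Groucho corepressors when β-catenin is absent. In pluripotent cells TCF7L1 is best known as a repressor, TCF7 and LEF1 are associated with activation, and TCF7L2 can act either way. TCF7, LEF1 and AXIN2 are themselves Wnt target genes in many tissues.

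The core of the TCF/LEF motif, written CTTTG or CAAAG depending on the strand, is shown in capitals in a promoter of TCF7 and in a promoter of TCF7L2. They are printed to show the core in its sequence context at the 2 members that had peaks, and each is the window of its gene with the most copies of the core. Both are windows from 250 bases before to 50 after a start, taken from RefSeq on GRCh38.p14. Each is 1 of more than 1 start listed there for its gene and need not be the TSS that the peak lists use. Their positions cannot be set against those of the peak lists, which use hg19.
TCF7 (chr5:134123368-134123667, plus strand): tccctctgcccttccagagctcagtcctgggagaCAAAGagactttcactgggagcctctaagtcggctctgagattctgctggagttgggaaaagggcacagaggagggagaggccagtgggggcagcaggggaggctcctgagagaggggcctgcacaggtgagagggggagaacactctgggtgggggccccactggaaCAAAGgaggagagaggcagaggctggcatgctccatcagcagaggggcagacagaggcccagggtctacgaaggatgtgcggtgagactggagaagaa
TCF7L2 (chr10:113126383-113126682, plus strand): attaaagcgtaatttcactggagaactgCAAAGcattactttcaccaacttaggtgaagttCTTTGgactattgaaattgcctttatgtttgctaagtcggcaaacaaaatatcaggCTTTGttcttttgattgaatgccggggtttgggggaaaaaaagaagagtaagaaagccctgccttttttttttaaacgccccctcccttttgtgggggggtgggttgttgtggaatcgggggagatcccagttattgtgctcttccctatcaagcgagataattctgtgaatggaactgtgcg
The longer forms CTTTGAT and CTTTGAA, searched on both strands, were in none of the 8 promoter windows listed for the 5 genes. CTTTGAT was in 2.62% and CTTTGAA in 4.43% of all 35116 windows of the same length, and the core, which both contain, was in 47.5% of them and in 4 of the 8. The absence of these letters says nothing about windows outside these 300 bases. The sequence beneath the peaks is not printed because no hg19 genome was used here.

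In unstimulated cells no member had a peak. No peak among the 260 of RPMI was assigned to a member, 1 of the 1053 CHIR peaks was, and 2 of the 1813 CHIR+SB peaks were. Counted by gene, this is 0, 1 and 2 of the 5 members. The share of all protein-coding genes with at least 1 peak stood at 1.14% for the RPMI list, 3.80% for CHIR and 6.25% for CHIR+SB. Against 5 genes these shares amount to less than 1 gene in each list, and a single gene decides the members' count. A gene without a peak is one for which the authors' caller listed none. The lists give no reads outside peaks, so weaker binding at those genes cannot be read from them.

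TCF7 carried the one position occupied with both treatments. The peak lay upstream of the gene, 43.4 kb from the TSS of NM_003202 (hg19, chr5:133406722-133407290 in CHIR and chr5:133406688-133407290 in CHIR+SB). In CHIR it held 45 β-catenin reads and 5 IgG reads. In CHIR+SB it held 32 β-catenin reads and 15 IgG reads. The read count multiplied by the authors' factor for the library, called the normalized signal here, was 17.3 with CHIR and 18.0 with CHIR+SB. The β-catenin signals at TCF7 thus lay close together, and the IgG signal at that position was 3.53 with CHIR and 5.91 with CHIR+SB.

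The ratio of normalized signal at TCF7, CHIR+SB over CHIR, was 1.04. Its exact 95% interval, based on the reads of both peaks, was 0.641 to 1.68. This interval covers counting error only and includes 1, and its bounds are wide enough that a lower or a higher signal with SB431542 could not have been told from an equal one. Both peaks were of similar width, 568 bp with CHIR and 602 bp with CHIR+SB. Across the table, the interval excluded 1 at 10.9% of the 642 peaks that overlapped one-to-one between these lists (43 higher and 27 lower in CHIR+SB). TCF7 was not one of them, and 54.4% of those peaks had a lower ratio.

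Within its lists the TCF7 peak was above the middle. It ranked 238 of 1053 in CHIR and 233 of 1813 in CHIR+SB, and was wider than most, with 16.4% and 7.34% of peaks wider. Over IgG it stood less high. The β-catenin to IgG ratio was 4.90 in CHIR (exact 95% interval 1.95 to 15.8), where the median of the list was 4.66. In CHIR+SB it was 3.05 (1.60 to 6.06), where the median was 4.29 and 89.6% of peaks had a higher ratio. These intervals overlap widely, so a difference in signal over IgG between the treatments was not detectable at this depth.

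In RPMI the TCF7 position had no peak. A signal equal to that in CHIR would have been 27.0 reads in the RPMI library, and the RPMI list reaches down to 15 reads and has 67 peaks at or above that signal. Read number alone would therefore have placed a site of that strength within the range of the RPMI list, though the other criteria of the caller are not known. An absence from RPMI was common: 83.0% of CHIR peaks had no RPMI peak over them.

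TCF7L2 had a single peak, in CHIR+SB only, upstream of the gene and 34.5 kb from the TSS of NM_030756 (hg19, chr10:114675390-114675693). It held 19 β-catenin reads and 6 IgG reads over 303 bp. Its normalized signal was 10.7, against 2.36 for IgG. The ratio to IgG was 4.52 (exact 95% interval 1.74 to 13.8). The signal was below the 18.0 of TCF7 in the same list, and the peak ranked 695 of 1813 together with the other peaks of 19 reads, 82 in all.

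No CHIR or RPMI peak overlapped the TCF7L2 peak. The same signal would have been 27.8 reads in CHIR, where the lowest peak has 20, and 16.7 reads in RPMI, where the lowest has 15. Peaks of CHIR+SB without a CHIR peak over them were the majority, 63.4% of that list, so a peak like that of TCF7L2 was common there. Whether β-catenin was lower at this position in CHIR was not tested, since that list gives no reads there. Among the 260 highest peaks of CHIR+SB, as many as the RPMI list holds, the TCF7L2 peak was not included and the count of members fell from 2 to 1.

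The members' own names do not hold all of the binding at their loci, because each peak carries the name of 1 gene. All peaks within 200 kb of the TSS that the lists give for TCF7 and TCF7L2 were therefore read, whatever their assigned gene. Each locus had 5 peaks in CHIR and CHIR+SB together and none in RPMI. All 10 lay upstream of the TCF7 or TCF7L2 TSS, and no peak lay between either TSS and 200 kb downstream of it. A position shared by CHIR and CHIR+SB is counted once for each list, so the 10 are list entries and not separate sites.

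At the TCF7 locus, a second position was occupied with both treatments, 67.5 kb upstream of the TCF7 TSS. The authors assigned it to VDAC1, which encodes a channel of the outer mitochondrial membrane, from whose own TSS it lay 42.1 kb away. It held 54 reads and 8 IgG reads in CHIR (hg19, chr5:133382571-133383209) and 35 reads and 10 IgG reads in CHIR+SB. The normalized signals were 20.7 and 19.7, a ratio of 0.949 (0.602 to 1.48). This peak lay 23.5 kb from the TCF7 peak and had a signal of similar size in each list. A further CHIR+SB peak of 15 reads and 6 IgG reads lay 64.2 kb upstream of TCF7.

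At the TCF7L2 locus, CHIR did have peaks, though under another name. Both were assigned to VTI1A, a gene of vesicle transport that lies upstream of TCF7L2. One was within VTI1A, 138 kb upstream of the TCF7L2 TSS, with 41 reads and 5 IgG reads in CHIR and 29 reads and 12 IgG reads in CHIR+SB. The other was beyond the end of VTI1A, 118 kb upstream of the TCF7L2 TSS, with 44 reads and 5 IgG reads in CHIR and 20 reads and 11 IgG reads in CHIR+SB. Both sites were therefore present with either treatment, in contrast to the peak 34.5 kb from TCF7L2, which lay 82.7 kb from the nearest CHIR peak.

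The ratio of CHIR+SB to CHIR signal was 1.04 (0.621 to 1.71) at the site within VTI1A. At the site beyond its end the signal was 16.9 in CHIR and 11.3 in CHIR+SB, a ratio of 0.666 (0.372 to 1.15), with a CHIR+SB peak 0.595 times as wide. Neither interval excluded 1. Signal over IgG at that second site in CHIR+SB was 2.60 (1.19 to 6.00), a value that 98.7% of peaks in the list exceeded.

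**Figure D1:**
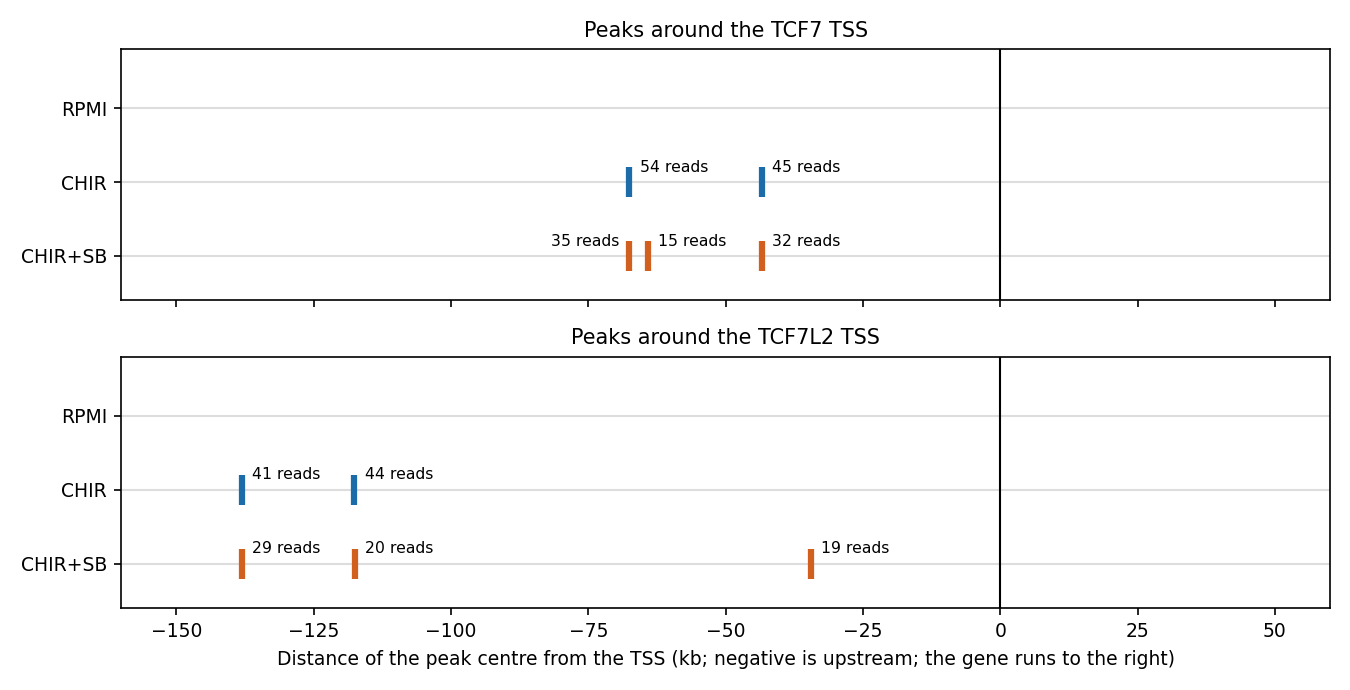
Positions of all peaks around the TCF7 TSS (upper panel) and the TCF7L2 TSS (lower panel) in each list, as the distance of the peak centre from the TSS in kb, with the β-catenin reads of each peak. RPMI has none, CHIR and CHIR+SB share 2 positions at each locus, and the peak of 19 reads near TCF7L2 is in CHIR+SB alone.

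LEF1 had no peak under its own name, but the noncoding gene next to it did. LEF1-AS1 is transcribed from the opposite strand, and in RefSeq it is the next gene after LEF1, with an overlapping span. A peak within LEF1-AS1, 1.25 kb from its TSS in CHIR and 1.31 kb in CHIR+SB, was listed with both treatments and not in RPMI (hg19, chr4:109094251-109094797 in CHIR and chr4:109094283-109094883 in CHIR+SB). It held 41 reads and 4 IgG reads in CHIR. In CHIR+SB it held 33 reads and 4 IgG reads.

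The LEF1-AS1 signal was 15.7 in CHIR and 18.6 in CHIR+SB, a ratio of 1.18 (0.722 to 1.91), again an interval that includes 1. Over IgG it stood at 5.58 (2.02 to 21.4) with CHIR. With CHIR+SB it stood at 11.8 (4.19 to 45.8), among the higher values of that list, where 3.25% of peaks had a higher ratio. The distance to the LEF1 TSS is not given, because the lists hold no position for LEF1. On the other side of LEF1, the first gene with a peak was DKK2, a secreted Wnt inhibitor, with 15 genes between and a peak 223 kb upstream of the DKK2 TSS in CHIR+SB alone (15 reads, 6 IgG reads).

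TCF7L1 had no peak under its own name. The nearest genes with a peak in RefSeq order were TRABD2A, with 8 genes between, and TGOLN2, with 4 between, none of them protein-coding. TRABD2A encodes a membrane protease known to inactivate Wnt proteins. Its peak lay within the gene, 25.2 kb from its TSS in CHIR, and had a higher signal than any peak at the TCF7, TCF7L2 or LEF1 loci, with 77 reads and 6 IgG reads in CHIR and 53 reads and 15 IgG reads in CHIR+SB. The signals were 29.6 and 29.8, a ratio of 1.01 (0.697 to 1.45), at rank 48 of 1053 and 42 of 1813. TGOLN2, a gene of the trans-Golgi network, had a promoter peak in RPMI (18 reads) and CHIR+SB (14 reads) and none in CHIR.

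By gene order, CTNNB1 was the most isolated member. The first genes with a peak were NKTR on one side, with 26 genes between, and CLASP2 on the other, with 135 between. The NKTR peak, at its promoter, was in every list. It held 19 β-catenin and 2 IgG reads with RPMI alone, 51 and 9 with CHIR, and 35 and 16 with CHIR+SB. Its signals were 12.2, 19.6 and 19.7. Over RPMI the ratio was 1.61 (0.933 to 2.88) with CHIR and 1.62 (0.9 to 2.99) with CHIR+SB, and both intervals include 1. The treated peaks were 2.05 and 2.22 times as wide as that of RPMI. Per width the ratios were 0.783 (0.454 to 1.4) and 0.728 (0.405 to 1.35), and these intervals also include 1. No peak in any list was assigned to the gene for β-catenin itself. The distance from CTNNB1 to the nearest peak is not given, because the lists hold no position for it.

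**Figure D2:**
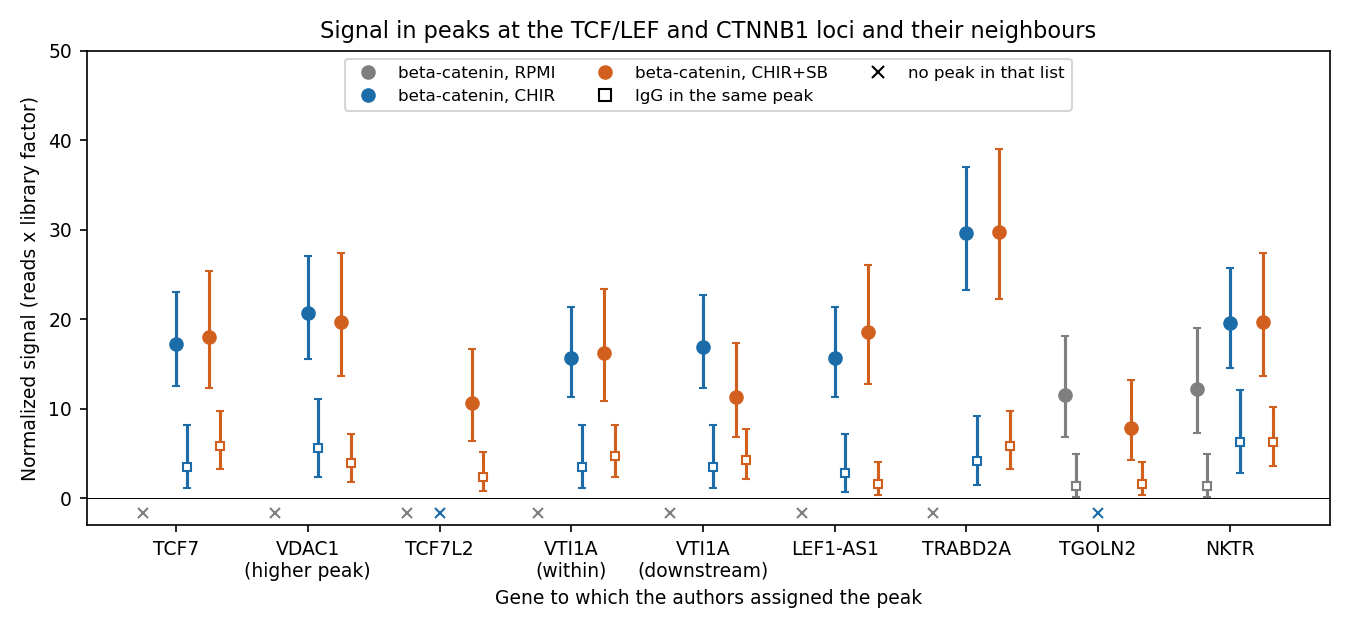
Normalized signal (read count times the authors' factor for the library) in the peaks at or next to the 5 loci, by list. Filled circles are β-catenin and open squares IgG in the same peak, bars are exact 95% Poisson intervals of the read counts, and a cross below 0 marks a list without a peak there. The TCF7, VDAC1 and LEF1-AS1 positions have peaks in CHIR and CHIR+SB and not in RPMI, and the TCF7L2 peak, at 10.7, is in CHIR+SB alone.

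The partners of the TCF/LEF factors in the nucleus were followed in the same way. Of 20 genes for coactivators, corepressors and inhibitors of β-catenin and TCF/LEF, 1 had a peak in RPMI, 3 had one in CHIR and 6 in CHIR+SB. These are 5%, 15% and 30%, beside 1.14%, 3.80% and 6.25% of all protein-coding genes, for a list chosen with earlier results known. TLE3, a Groucho corepressor, had a peak 0.684 kb upstream of its TSS in CHIR, with 50 reads and 3 IgG reads (hg19, chr15:70390634-70391246). In CHIR+SB that peak held 22 reads and 5 IgG reads, and the ratio of the signals was 0.645 (0.372 to 1.08). Its boundaries spanned 612 bp with CHIR and 389 bp with CHIR+SB. Divided by width, the TLE3 ratio became 1.01 (0.585 to 1.71). Both intervals include 1. Since each count covers its own boundaries, width and signal cannot be told apart here. TLE1 and TLE4, of the same family, had peaks in CHIR+SB alone, 498 kb and 211 kb from the TSS, with 14 and 15 reads.

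BCL9, which links β-catenin to the coactivator Pygopus, was the one partner with a peak in every list, within the gene and 46.2 kb from its TSS in RPMI and CHIR. The BCL9 peak held 18 β-catenin and 3 IgG reads with RPMI alone, 24 and 4 with CHIR, and 32 and 12 with CHIR+SB. The BCL9 signals were 11.5, 9.22 and 18.0. CHIR+SB over CHIR was 1.95 (1.11 to 3.47), an interval that excludes 1, but the CHIR+SB peak spanned 2.68 times the width, and the CHIR signal was close to the lowest of that list, 7.68. Per width the ratio was 0.728 (0.415 to 1.29). Each count covers its own boundaries, so a difference in width cannot be told apart from one in signal at BCL9. Against RPMI, the CHIR signal gave a ratio of 0.799 (0.416 to 1.56) and the CHIR+SB signal one of 1.56 (0.850 to 2.95).

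The genes of the TBL1 corepressor exchange factors had peaks in the treated cells and none in RPMI. TBL1XR1 had 2 peaks in CHIR, of 20 reads at 0.305 kb and 25 reads at 87.2 kb upstream, and in CHIR+SB the farther one, of 22 reads, with a ratio of 1.29 (0.693 to 2.38). TBL1X had a peak of 19 reads in CHIR+SB, 170 kb upstream. Of the 13 Dishevelled and destruction complex genes, AXIN2, the feedback inhibitor that scaffolds β-catenin destruction, was the 1 with a peak. This is 7.69% in CHIR and in CHIR+SB, beside 3.80% and 6.25% of all protein-coding genes, and a single gene decides it. The highest single CHIR peak of AXIN2 held 72 reads and 10 IgG reads 32.2 kb upstream. Its signal was 27.6, against 17.3 for the TCF7 peak in the same list. Closer to the TSS, from 1.22 kb within AXIN2 to 0.243 kb upstream, CHIR had separate peaks of 26, 61, 67 and 32 reads. In CHIR+SB a single peak of 81 reads and 32 IgG reads lay 0.38 kb from the TSS, 1440 bp wide. The signal of that peak was 45.6, at rank 10 of 1813.

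Upstream in the pathway, 5 of 19 Wnt ligand genes (26.3%) had a peak in CHIR and 5 in CHIR+SB. Of 12 receptor genes, 4 (33.3%) had one in CHIR and 5 (41.7%) in CHIR+SB. Among 7 genes for junctional catenins and cadherins none had a peak in CHIR and 1 (14.3%), CTNNA2, had one in CHIR+SB. In RPMI 2 ligand genes (10.5%), 2 receptor genes (16.7%) and CDH2 (14.3% of the 7) had one. In all, 6 of the 71 pathway genes (8.45%) had a peak in the RPMI list, 13 (18.3%) under CHIR and 18 (25.4%) under CHIR+SB, against the backgrounds of 1.14%, 3.80% and 6.25% of protein-coding genes. These genes were listed with earlier results known, so the shares are a description. With only peaks of a normalized signal of at least 9.61, the highest of the lists' lowest signals, the counts were 6, 11 and 12. With peaks limited to 50 kb from the TSS the CHIR+SB count was 9 and the CHIR count 11, so the order of these counts turned. The share of all protein-coding genes was not computed under either limit. Whether the turned order was particular to the pathway genes was therefore not tested. Peaks more than 10 kb from the TSS made up 71.3% of the whole CHIR+SB list, against 55.4% of the CHIR list.

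**Figure D3:**
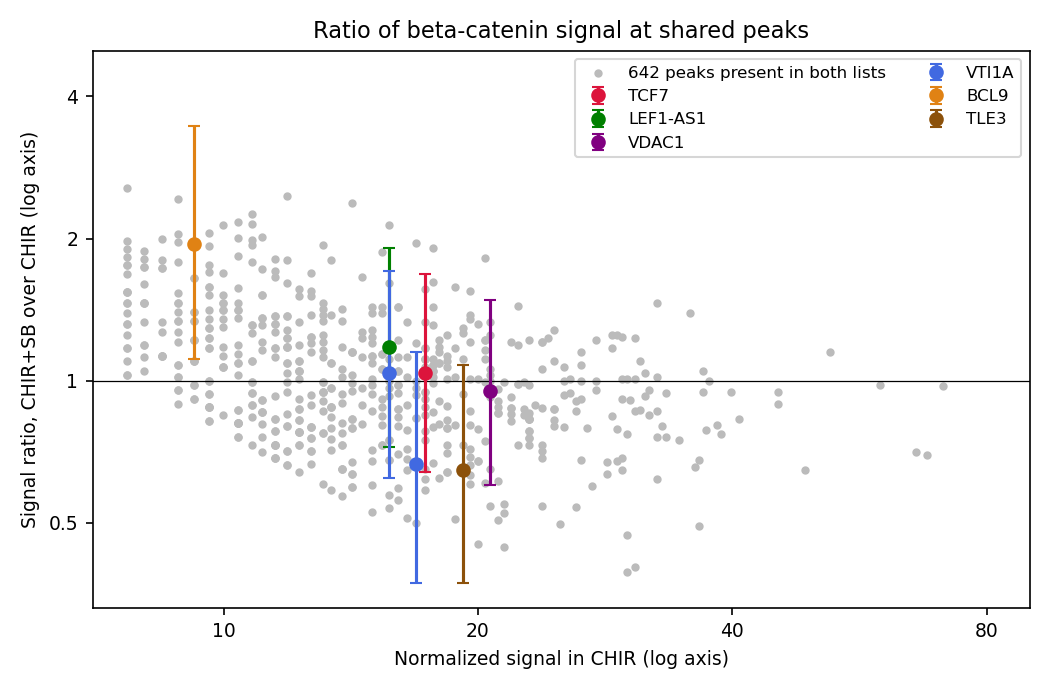
Ratio of normalized β-catenin signal, CHIR+SB over CHIR, against the CHIR signal (both log axes), for 642 peaks that overlapped one-to-one. Coloured points are peaks at TCF7, at neighbouring genes of the TCF/LEF loci and at partner genes, with exact 95% intervals from the read counts. TCF7 lies at 1.04 and BCL9, whose interval alone among the coloured points excludes 1, at 1.95.

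By the sum of normalized signal per gene over the 3 conditions, the genes most like TCF7 among 1839 others were RABL5, CREB5 and FMN1. Their summed signals were 0 in RPMI for each, 17.7, 17.3 and 16.5 in CHIR, and 18.0, 18.6 and 18.6 in CHIR+SB. The distances on the log2(sum + 1) scale were 0.030, 0.0421 and 0.0749. For TCF7L2, 41 genes had exactly its pattern, a single signal of 10.7 in CHIR+SB, so no gene can be ranked as closest. ADRA2A, ANKRD33B and BCL11A are the first of them in alphabetical order.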

How the data were processed

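The peak lists were deposited by the authors, 1 for each β-catenin library. The submitters' processing notes name Bowtie as the aligner and hg19 and mm9 as builds, and the lists carry gene positions of hg19. Not given in the sources used here are the peak caller, its thresholds and the total library depth. Doses are left out, since the unit the labels print for them is uncertain. Per the file headers, each peak has whole read counts for the β-catenin and the IgG library, normalized values and the nearest gene. The deposited normalized signal is the count times 1 factor per library, and the deposited ratio to IgG holds 10000 where the IgG count is 0. By the inverse of these factors, CHIR had 1.67 and CHIR+SB 1.14 times the β-catenin depth of RPMI, and 0.976 and 1.75 times its IgG depth. β-catenin reads in peaks numbered 6272, 39408 and 39022, in the order RPMI, CHIR, CHIR+SB.

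Members and gene lists were chosen with earlier results of these data known. Peaks of 2 lists overlapped when they shared at least 1 bp. Ratios carry exact 95% intervals (Clopper-Pearson on the 2 read counts, scipy 1.17.1), which cover counting error only. Reads have no molecular identifiers, so they are not all independent molecules. A ratio needs a peak in both lists, and each count covers its own boundaries. Named are all 5 members, the genes of the nuclear partner and destruction complex lists with a peak, and the 3 genes nearest to a member by summed signal (Euclidean distance, log2(sum + 1)). Neighbouring genes and the 200 kb windows were added after the values were seen. Gene order and names came from the RefSeq table (GRCh38.p14), which matched 100%, 99.1% and 99.3% of the names in RPMI, CHIR and CHIR+SB.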

Additional observations from a re-analysis of the deposited data

How the results depend on the processing

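With the 260 highest peaks of each list, the count of member peaks in CHIR+SB was 1, as was the count of members with a peak there, in place of 2. With peaks limited to 50 kb, 9 Wnt pathway genes had a CHIR+SB peak, in place of 18. The other 30 of 33 recomputed values stayed within 1.5 times the count or within the interval reported. Some of these could not have moved. RPMI had no member peak to leave out, and 9.61 is its own lowest signal. The 99% intervals surround unchanged ratios, and the CHIR peak at TCF7 lies inside that of CHIR+SB under either overlap rule. The tally of 30 is therefore no measure of stability. The pathway count of 12 in CHIR+SB, with peaks below a signal of 9.61 left out, was at the limit of 1.5 times. So was the RPMI pathway count of 4, in place of 6, with peaks limited to 50 kb. The 30 values included the TCF7 ratio, which was 0.983 per width, 1.16 with promoter peaks scaled equal and 1.04 with the stricter overlap rule. Depth limits what can be read: the lowest peaks have 15, 20 and 12 reads in RPMI, CHIR and CHIR+SB, and at 19 reads against 6 the ratio to IgG at TCF7L2 has an interval of 1.35 to 20.1 at the 99% level. No paired analysis was possible because each condition had 1 library.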
